A study of Homo sapiens with 72 samples.

Results

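Matrix metalloproteinases (MMPs) are zinc-dependent proteases that fibroblasts secrete or carry on their surface to cut the extracellular matrix, and the tissue inhibitors of metalloproteinases (TIMPs) are the secreted proteins that bind and block them. The collagenase MMP1 opens fibrillar collagen, the stromelysins MMP3 and MMP10 cut proteoglycans, laminin and fibronectin and activate other MMPs, MMP12 is an elastase, MMP2 is a gelatinase, and the membrane-bound MMP14 activates MMP2 with TIMP2 as its partner. Genes of the collagenase and stromelysin kind are known as inducible genes that respond to cytokines and stress, whereas MMP2 and TIMP2 are usually expressed at a steady level in fibroblasts.

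The members were MMP1, MMP2, MMP3, MMP10, MMP12, MMP14, TIMP1, TIMP2 and TIMP3, chosen by the gene name of each probe in the scanner files. These 9 genes had 12 probes, of which 8 probes of 8 genes were bright enough to be tested among 25246 tested probes of the array. All 8 tested probes were well above background on all 72 arrays and none of their spots was saturated. Both MMP12 probes were dim, above background on 24 and 17 of 72 arrays, and are described without a test. A second TIMP2 probe was above background on 3 arrays. A second probe, named MMP1 in the older of the array annotations found in the files but not in the newer one, was above background on 0 arrays.

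The cells were IMR-90, an established strain of normal human lung fibroblasts, at an early passage. Irradiated cells grew on the thin Mylar base of an outer dish and received 50 cGy of α-particles (4He ions). Bystander cells grew on the thicker Mylar of an inner dish that stopped the particles, in a continuous layer with the irradiated cells, and control cells were sham-irradiated. RNA was taken 0.5, 1, 2 and 4 h as well as 6 and 24 h later in 4 experiments, each from 1 pool of cells, which gave 24 arrays for each treatment (4 at each time). A single cell strain was used, with no second line beside it. In such bulk samples, fewer cells of a type and less RNA per cell cannot be told apart.

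Each array held 43376 spots that were not controls, and 65.7% to 76.9% of them (median 70.2%) were well above background. A log2 level is given relative to the array's own 75th percentile, which is set at 0, so that levels of different probes are not comparable. A log2 ratio is the treated minus the control level within 1 experiment, given as mean ± SD (n = 4 paired ratios). A probe is said to have risen or fallen where limma with the experiment as a block gave a Benjamini-Hochberg adjusted p below 0.10 over all tested probes. The precision of each value was limited by the 4 arrays in each group.

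Some arrays stood apart. The bystander array of experiment 4 at 0.5 h was close to its control, with a log2 level of 2.63 against 2.43 for MMP1 and -0.84 against -1.07 for MMP3. The control array of experiment 3 at 24 h was high for all of the inducible genes, with levels of 5.42 for MMP1, 4.73 for MMP3 and 0.50 for MMP10, where the other 3 controls of that time lay between 2.90 and 3.37, between -0.05 and 0.83, and between -3.17 and -2.82. The treated arrays of experiment 3 at 24 h were likewise the highest of their groups, at 6.79 and 6.42 for MMP1 and 6.15 and 5.69 for MMP3 in irradiated and bystander cells. The experiment numbers 3 and 4 at 0.5 h also went against those at other times. All 6 arrays with these numbers at 0.5 h correlated best with the arrays of the other number at the other times (r from 0.26 to 0.59 with the other number, -0.38 to 0.14 with their own), whereas 60 of the other 66 arrays correlated best with their own number. Nothing was exchanged on this account. Values averaged over the 6 times are therefore also given without the 0.5 h arrays where this mattered.

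Sequences upstream of the start site are shown for the members that changed and that the RefSeq promoter table for GRCh38.p14 held, namely MMP10 and TIMP1, which were higher, and MMP14 and TIMP3, which were lower. Each is the 250 bases before the annotated start, read 5′ to 3′ on the gene's strand, with motifs in capitals. The motifs searched on both strands were the AP-1 motif TGANTCA, the ETS-family motif AGGAAG known as PEA3, and TATAAA, the TATA box.
MMP10, chr11:102780629-102780878, minus strand: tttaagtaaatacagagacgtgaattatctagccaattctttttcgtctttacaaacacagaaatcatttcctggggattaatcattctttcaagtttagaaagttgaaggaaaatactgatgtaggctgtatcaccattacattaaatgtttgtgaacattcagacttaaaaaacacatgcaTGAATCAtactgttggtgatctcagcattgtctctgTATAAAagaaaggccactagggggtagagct
TIMP1, chrX:47582186-47582435, plus strand: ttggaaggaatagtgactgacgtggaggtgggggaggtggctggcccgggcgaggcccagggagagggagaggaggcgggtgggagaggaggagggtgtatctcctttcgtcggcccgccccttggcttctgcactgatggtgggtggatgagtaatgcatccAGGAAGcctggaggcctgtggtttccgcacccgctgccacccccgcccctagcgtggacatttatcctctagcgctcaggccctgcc
MMP14, chr14:22836335-22836584, plus strand: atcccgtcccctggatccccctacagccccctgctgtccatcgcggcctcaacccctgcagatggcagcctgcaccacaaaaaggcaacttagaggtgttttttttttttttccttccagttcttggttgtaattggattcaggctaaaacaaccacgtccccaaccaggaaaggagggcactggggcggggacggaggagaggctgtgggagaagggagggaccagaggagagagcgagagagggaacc
TIMP3, chr22:32801455-32801704, plus strand: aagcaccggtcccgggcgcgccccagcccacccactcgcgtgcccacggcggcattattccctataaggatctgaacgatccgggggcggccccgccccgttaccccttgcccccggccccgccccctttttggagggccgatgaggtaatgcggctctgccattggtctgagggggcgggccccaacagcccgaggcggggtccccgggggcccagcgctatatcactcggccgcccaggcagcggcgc
The MMP10 window held TGAATCA, a form of the AP-1 motif, beginning 67 bases before the start, and TATAAA beginning 31 bases before it. The TIMP1 window held AGGAAG, beginning 87 bases before the start. The MMP14 and TIMP3 windows held none of the 3 motifs. Among 35116 promoters of the same length, 6.57% held TGANTCA, 28.7% held AGGAAG and 10.7% held TATAAA. In the gene order of the same assembly, MMP10, MMP1, MMP3 and MMP12 followed each other on chromosome 11 within a run of 9 MMP genes, from MMP7 to MMP13. Of the other 5 genes of the run, MMP7, MMP20 and MMP27 were above background on 0 of 72 arrays, and MMP8 and MMP13 on 4 arrays each.

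MMP1, MMP3 and MMP10 rose in both irradiated and bystander cells, with calls at 0.5, 4 and 6 h in both treatments and at 2 h in irradiated cells. Over the mean of the 6 times, MMP1 was 3.75-fold higher in irradiated cells and 3.16-fold higher in bystander cells, MMP3 was 4.89-fold and 4.07-fold higher, and MMP10 was 2.32-fold and 2.47-fold higher. The largest changes of the 3 genes were at 6 h, up to 14.2-fold for MMP3 in irradiated cells. The 3 genes belong to the probe list that the study chose from these samples at 4 h, so their direction at that time is not independent evidence. The means of the 6 times include the 4 h arrays, were not run without them and so are not independent of that choice.

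**Figure D1:**
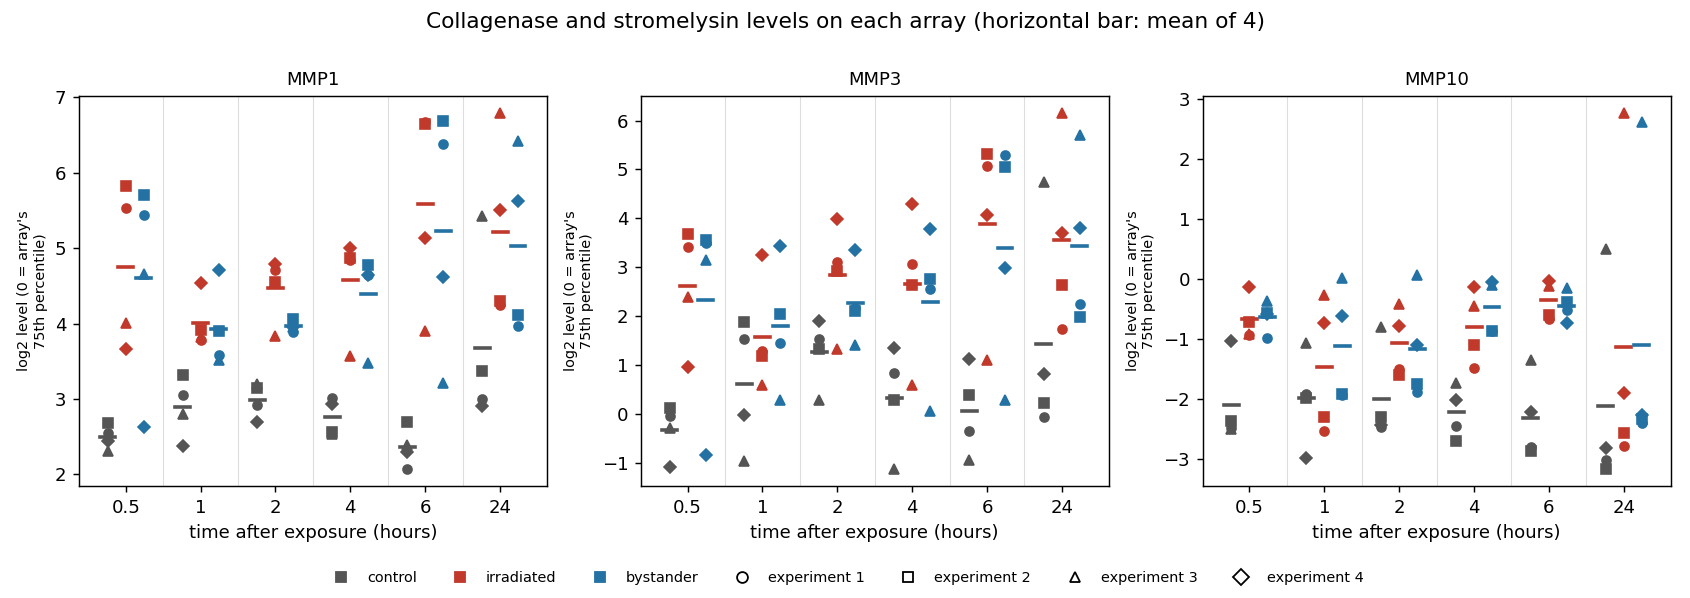
Log2 level of MMP1, MMP3 and MMP10 on each of the 72 arrays (vertical axis, 0 is the array's 75th percentile) against time after exposure in hours (horizontal axis). Colours give the treatment, symbols the experiment and horizontal bars the mean of 4 arrays. For MMP1 and MMP3, the irradiated and bystander arrays of experiments 1 and 2 stand far above the controls at 0.5 h and 6 h. The control array of experiment 3 at 24 h is as high as treated arrays.

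MMP1, the interstitial collagenase, had log2 levels of 2.55, 2.68, 2.31 and 2.43 in the controls of experiments 1 to 4 at 0.5 h. The irradiated cells had 5.53, 5.83, 4.01 and 3.66, and the bystander cells 5.44, 5.70, 4.66 and 2.63. Every irradiated array was above every control, and only the bystander array of experiment 4 fell among the controls. At 6 h the controls were at 2.07, 2.69, 2.39 and 2.30. The irradiated cells were at 6.68, 6.65, 3.90 and 5.13 and the bystander cells at 6.38, 6.69, 3.20 and 4.62. Neither treated group overlapped the controls at 6 h, and experiment 3 showed the smallest rise in both.

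The mean log2 ratio of MMP1 in irradiated cells was 2.26 ± 0.95 at 0.5 h (limma adjusted p = 0.0301), 1.48 ± 0.63 at 2 h (adjusted p = 0.0109), 1.81 ± 0.55 at 4 h (adjusted p = 0.00433) and 3.23 ± 1.36 at 6 h (adjusted p = 0.0101). At 1 h it was 1.13 ± 0.71 (adjusted p = 0.138) and at 24 h 1.54 ± 0.73 (adjusted p = 0.132), positive in 4 of 4 experiments at both times but short of the threshold. In bystander cells MMP1 rose by 2.11 ± 1.31 at 0.5 h (adjusted p = 0.0311), 1.62 ± 0.52 at 4 h (adjusted p = 0.00625) and 2.86 ± 1.62 at 6 h (adjusted p = 0.0544). The bystander ratio at 2 h, 0.98 ± 0.21, had an adjusted p of 0.117. The mean of the 6 times was 1.91 ± 0.47 in irradiated cells (limma adjusted p = 0.000571) and 1.66 ± 0.38 in bystander cells (adjusted p = 0.00169).

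MMP3 (stromelysin 1), which can activate the collagenase proenzyme, had the largest changes of the tested members. Its control levels at 0.5 h were -0.03, 0.12, -0.28 and -1.07, against 3.41, 3.69, 2.39 and 0.95 in irradiated cells and 3.49, 3.55, 3.14 and -0.84 in bystander cells. All irradiated arrays and 3 of 4 bystander arrays lay above the controls. At 6 h the control levels were -0.34, 0.39, -0.94 and 1.12, the irradiated 5.07, 5.31, 1.10 and 4.08, and the bystander 5.30, 5.04, 0.28 and 2.99. The groups overlapped at 6 h, as the treated arrays of experiment 3 lay below the highest control, that of experiment 4. Experiment 3 was the lowest in every treatment, although each experiment rose against its own control.

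The log2 ratio of MMP3 in irradiated cells was 2.93 ± 0.72 at 0.5 h (limma adjusted p = 0.0251), 1.57 ± 0.43 at 2 h (adjusted p = 0.00428), 2.31 ± 0.51 at 4 h (adjusted p = 0.00215), 3.83 ± 1.60 at 6 h (adjusted p = 0.0132) and 2.12 ± 0.65 at 24 h (adjusted p = 0.0529). In bystander cells it was 2.65 ± 1.61 at 0.5 h (adjusted p = 0.0267), 1.00 ± 0.37 at 2 h (adjusted p = 0.0982), 1.95 ± 0.62 at 4 h (adjusted p = 0.00332) and 3.34 ± 2.13 at 6 h (adjusted p = 0.0723). The 1 h samples were split by experiment, with irradiated ratios of -0.25, -0.70, 1.56 and 3.28. Over the 6 times the mean was 2.29 ± 0.40 in irradiated cells (limma adjusted p = 0.000181) and 2.02 ± 0.34 in bystander cells (adjusted p = 0.00106), positive in 4 of 4 experiments in each.

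MMP10 (stromelysin 2), whose upstream sequence with its AP-1 and TATA motifs is shown above, changed less than MMP3. At 4 h its control levels were -2.46, -2.70, -1.74 and -2.02, its irradiated levels -1.49, -1.11, -0.46 and -0.14, and its bystander levels -0.88, -0.87, -0.11 and -0.06. Both treated groups lay wholly above the controls at this time, as they also did at 0.5 and 6 h. The ratio was 1.42 ± 0.35 at 0.5 h, 0.93 ± 0.53 at 2 h, 1.43 ± 0.39 at 4 h and 1.96 ± 0.49 at 6 h in irradiated cells (limma adjusted p = 0.0251, 0.0499, 0.00444 and 0.00567). In bystander cells it was 1.47 ± 0.72 at 0.5 h, 1.75 ± 0.18 at 4 h and 1.86 ± 0.62 at 6 h (adjusted p = 0.0202, 0.00198 and 0.0266). The bystander experiments at 4 h differed little from each other. The mean over the 6 times was 1.21 ± 0.32 in irradiated cells (limma adjusted p = 0.00128) and 1.30 ± 0.17 in bystander cells (adjusted p = 0.00169).

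The calls of MMP1, MMP3 and MMP10 over the mean of the 6 times held in both treatments without any 1 experiment, and so did the irradiated calls at 4 and 6 h and that of MMP3 at 2 h. The other calls at single times depended on 1 experiment or more. The size of some rises also rested on 1 experiment. The log2 ratio of MMP3 at 6 h in irradiated cells ran from 3.31 without experiment 1 to 4.43 without experiment 3, and in bystander cells from 2.58 to 4.05 without the same experiments. In bystander cells the ratio of MMP1 at 6 h was 3.54 without experiment 3, and at 0.5 h the ratios of MMP1 and MMP3 were 2.75 and 3.46 without experiment 4. In irradiated cells, the calls of all 3 genes at 0.5 h were lost without experiment 2 (limma adjusted p = 0.177 for each), that of MMP1 at 2 h without experiment 1 or 2 (adjusted p = 0.204 and 0.184), that of MMP10 at 2 h without experiment 1, 2 or 3 (adjusted p from 0.127 to 0.246) and that of MMP3 at 24 h whichever was left out (adjusted p from 0.169 to 0.272). In bystander cells, the calls of all 3 genes at 0.5 h were lost without experiment 1 or 2 (adjusted p from 0.12 to 0.183), at 4 h without experiment 2 (adjusted p from 0.104 to 0.134) and at 6 h without experiment 1, 2 or 4 (adjusted p from 0.136 to 0.34). The bystander call of MMP1 at 4 h was also lost without experiment 1 (adjusted p = 0.118), and that of MMP3 at 2 h without experiment 1, 2 or 3 (adjusted p from 0.27 to 0.535).

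MMP12, the macrophage elastase, had no control array above background at 1, 2, 4, 6 or 24 h on its brighter probe. Its change can therefore be bounded only on the control side there. Its treated mean was set against the lowest signal that counted as above background on each control array, or the dim value itself where that was higher. Dim treated arrays entered the mean with their own value or the floor of -8, so the bound is no strict minimum of the change. At 6 h the bound was 7.28-fold in irradiated cells, with 3 of 4 arrays above background, and 5.44-fold in bystander cells, with 2 of 4. The second probe gave 3.73-fold and 2.77-fold at 6 h, with 2 arrays above background in each. These bounds rested on experiments 1 and 2: on the brighter probe they were 4.03 and 3.14 without experiment 1 and 4.63 and 3.28 without experiment 2, against 14.9 and 11.7 without experiment 3. The bounds on the brighter probe in irradiated cells were 2.87 at 1 h, 2.71 at 2 h and 1.84 at 4 h, and in bystander cells 2.03 at 1 h and 1.45 at 4 h. The second probe gave no bound at 1, 2 or 4 h. At 2 h its mean log2 level was -7.65 in irradiated cells and -7.20 in controls, with 0 arrays above background in either. At 24 h the bystander bound was 1.35 on the brighter probe, and on the second probe the bounds were 1.95 for bystander and 1.27 for irradiated cells. Each of the 24 h bounds came from 1 array above background and could not be given without it.

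The experiments differed for MMP12 as they did for MMP1 and MMP3. At 6 h the brighter MMP12 probe was at -1.53 and -1.52 in the irradiated arrays of experiments 1 and 2 and at -2.12 and -1.70 in their bystander arrays, while experiments 3 and 4 were at -7.37 and -5.56 after irradiation and at -8 and -5.83 in bystander cells. At 0.5 h, where 2 control arrays were above background, experiments 1 and 2 were at -2.79 and -2.84 after irradiation and at -3.03 and -3.07 in bystander cells, against -5.58 and -5.79 in their controls. Experiments 3 and 4 were not above background at 0.5 h, between -8 and -6.23 in both treated groups. The MMP12 probes were left out by the filter on dim probes. Where every probe was tested, the brighter one had a mean log2 ratio of 2.29 in irradiated cells (limma adjusted p = 0.0129) and 1.83 in bystander cells (adjusted p = 0.0349) over the 6 times. The second probe had 1.07 and 1.33 (adjusted p = 0.14 and 0.141). These values rest on signals at the floor and are no bound.

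**Figure D2:**
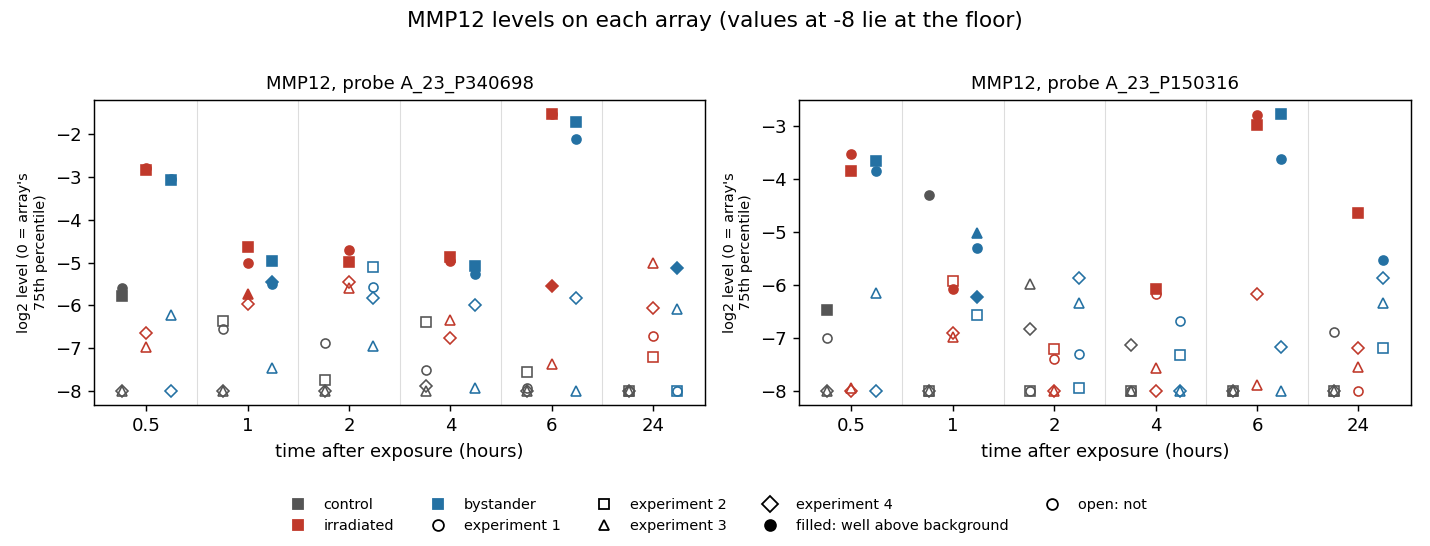
Log2 level of the MMP12 probes on each of the 72 arrays (vertical axis, 0 is the array's 75th percentile, values at -8 lie at the floor) against time after exposure in hours (horizontal axis). Filled symbols are well above background and open ones are not, with colours for the treatment and symbols for the experiment. The highest values, from -2.12 to -1.52 at 6 h on the brighter probe, belong to treated arrays of experiments 1 and 2.

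MMP14, MMP2 and TIMP3 were lower after irradiation, by less than the inducible genes rose. MMP14, the membrane-type activator of MMP2, had a mean log2 ratio over the 6 times of -0.79 ± 0.81 in irradiated cells (limma adjusted p = 0.0676) and -0.83 ± 0.73 in bystander cells (adjusted p = 0.0911). The experiment means were -0.09, -0.33, -0.83 and -1.90 after irradiation and -0.12, -0.55, -0.80 and -1.84 in bystander cells. The fall was thus largest in experiment 4 and near 0 in experiment 1, while the irradiated and control groups overlapped. At single times only the irradiated cells at 6 h passed the threshold, with -1.18 ± 0.85 (limma adjusted p = 0.0576). There the controls were at -0.46, -1.27, 1.60 and 0.85 and the irradiated cells at -1.08, -1.62, 0.02 and -1.33. Control levels of MMP14 themselves differed between experiments, being above 0 in experiments 3 and 4 and below 0 in experiments 1 and 2 at every time. Without the 0.5 h arrays neither call remained (-0.78, limma adjusted p = 0.152, and -0.83, adjusted p = 0.20), and without experiment 4 the irradiated mean was -0.42 (adjusted p = 0.148). The irradiated call was also lost without experiment 3 (adjusted p = 0.221), the bystander call without experiment 2, 3 or 4 (adjusted p from 0.147 to 0.297, with a mean of -0.49 without experiment 4), and the call at 6 h without experiment 1, 3 or 4 (adjusted p from 0.106 to 0.241).

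MMP2, the gelatinase of resting fibroblasts, had a mean log2 ratio of -0.58 ± 0.37 in irradiated cells (limma adjusted p = 0.0298). In bystander cells it was -0.36 ± 0.25 (adjusted p = 0.106). MMP2 fell in irradiated cells at 2 h (-0.57 ± 0.41, adjusted p = 0.0671) and at 6 h (-0.99 ± 0.87, adjusted p = 0.0901). At 6 h the controls were at 4.27, 2.65, 4.00 and 4.55 and the irradiated cells at 2.51, 2.44, 3.75 and 2.83. Each experiment was below its own control, with experiments 2 and 3 close to it. The irradiated call over the 6 times was lost without experiment 4 (limma adjusted p = 0.103), the call at 2 h without experiment 1, 2 or 3 and the call at 6 h without experiment 1, 2 or 4 (adjusted p from 0.106 to 0.379).

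TIMP3, the inhibitor that stays bound to the matrix, fell in both treatments at 0.5 h. Its control levels were 4.82, 4.68, 5.43 and 4.90, its irradiated levels 4.32, 4.24, 4.59 and 4.43, and its bystander levels 4.32, 4.15, 4.34 and 4.61. Neither treated group overlapped the controls. The log2 ratio at 0.5 h was -0.56 ± 0.19 after irradiation (limma adjusted p = 0.0615) and -0.60 ± 0.34 in bystander cells (adjusted p = 0.0591). In irradiated cells TIMP3 also fell at 2 h (-0.39 ± 0.14, adjusted p = 0.0909) and 6 h (-0.65 ± 0.18, adjusted p = 0.0576). Over the 6 times it was -0.45 ± 0.20 in irradiated (limma adjusted p = 0.0216) and -0.44 ± 0.17 in bystander cells (adjusted p = 0.0403). The irradiated call was lost without experiment 3 (adjusted p = 0.102), and the bystander call without experiment 2 or 3 and without the 0.5 h arrays (adjusted p = 0.141, 0.231 and 0.167). Each TIMP3 call at a single time was lost without at least 3 of the 4 experiments in turn (adjusted p from 0.108 to 0.279).

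TIMP1 and TIMP2 moved little. TIMP1, the soluble inhibitor that binds MMP1 and MMP3, passed the threshold only over the 6 times in irradiated cells, with 0.20 ± 0.03 (limma adjusted p = 0.061) and a positive value in 4 of 4 experiments. Without scaling between the arrays this value was 0.04 (adjusted p = 0.825), and the call was also lost whichever experiment was left out (adjusted p from 0.105 to 0.198). In bystander cells the TIMP1 ratio was 0.10 ± 0.09 (limma adjusted p = 0.285). TIMP2, which inhibits MMP2 and also takes part in its activation, had ratios of -0.12 ± 0.29 in irradiated and -0.17 ± 0.30 in bystander cells (adjusted p = 0.439 and 0.305). Without scaling between the arrays the irradiated TIMP2 ratio was -0.29 and passed the threshold (adjusted p = 0.0802). No time gave a call for either inhibitor.

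**Figure D3:**
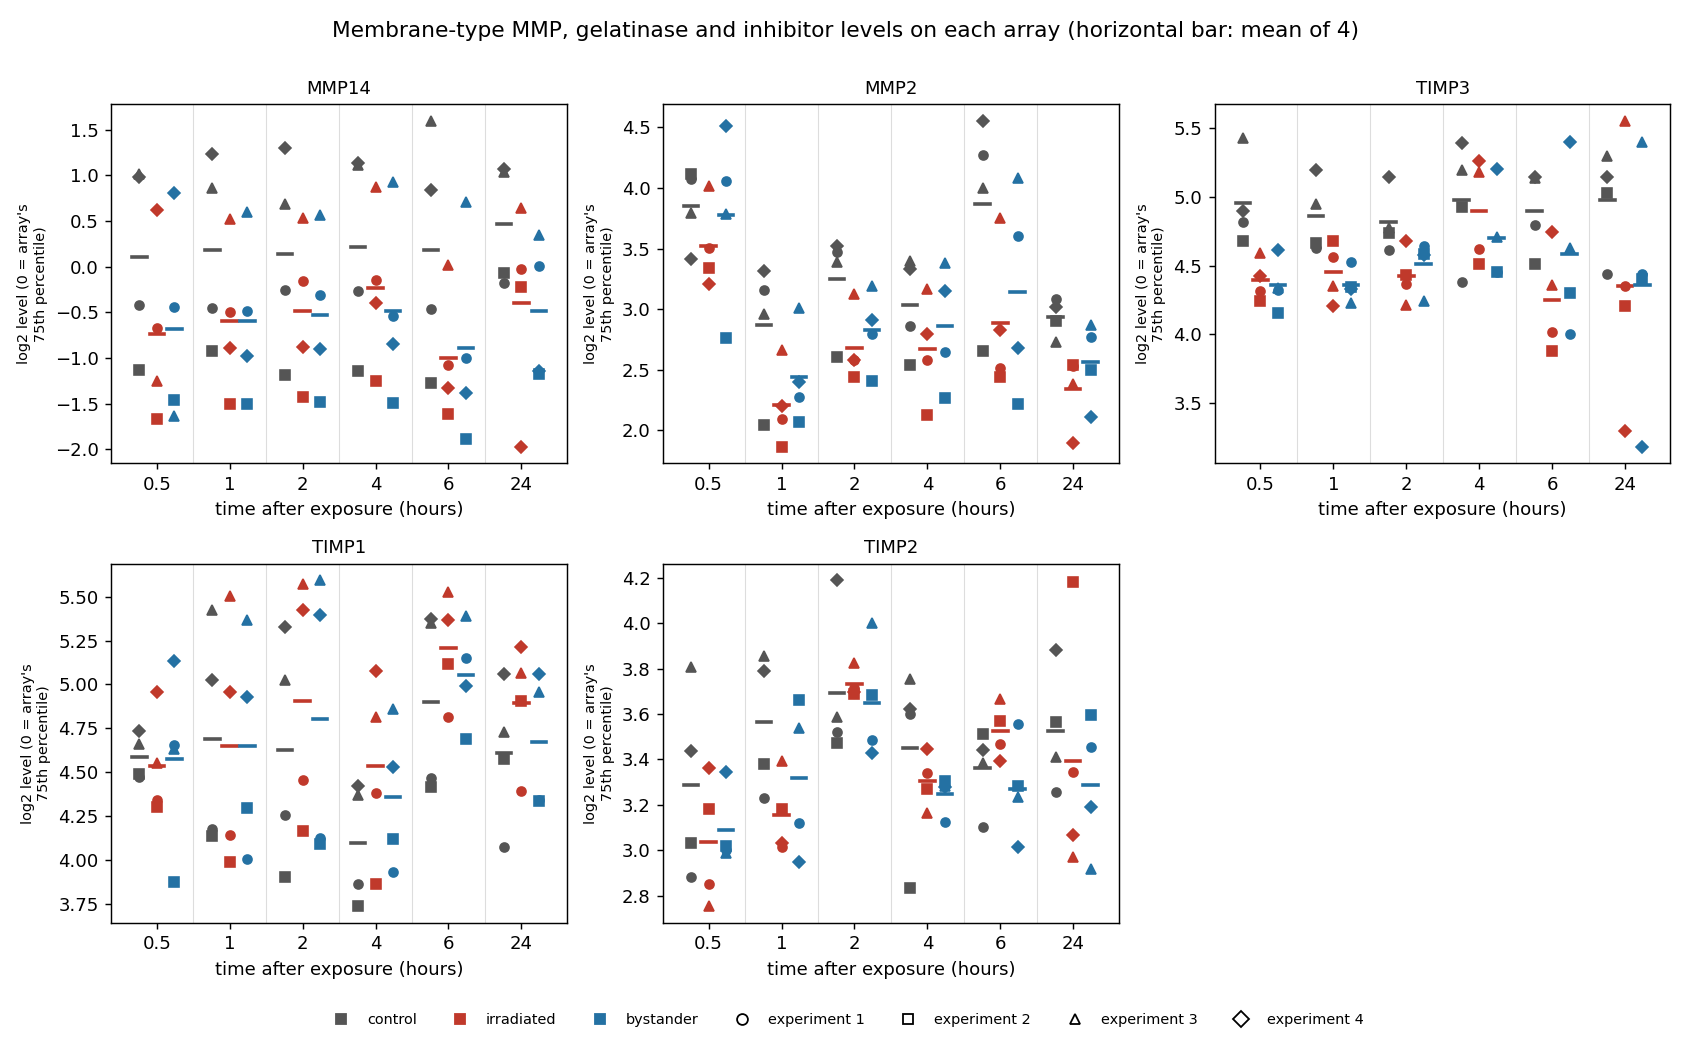
Log2 level of MMP14, MMP2, TIMP3, TIMP1 and TIMP2 on each of the 72 arrays (vertical axis, 0 is the array's 75th percentile, with a range of its own in each panel) against time after exposure in hours (horizontal axis). Colours give the treatment, symbols the experiment and horizontal bars the mean of 4 arrays. At 0.5 h all treated TIMP3 arrays lie below the lowest control of 4.68, whereas MMP14 is spread more by experiment than by treatment.

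The calls of the 8 tested members were read against the share of all tested probes that were called. The members were chosen with earlier results of these data known, and MMP1, MMP3 and MMP10 were in the study's list from 4 h. These shares, here and over the mean of the 6 times, are therefore a description and no independent evidence about the family. In irradiated cells 4 of 8 members were called at 0.5 h (9.91% of all probes), 0 at 1 h (0%), 5 at 2 h (5.78%), 3 at 4 h (1%), 6 at 6 h (10.5%) and 1 at 24 h (0.174%). In bystander cells 4 were called at 0.5 h (7.02% of all probes), 0 at 1 h (0%), 1 at 2 h (0.214%), 3 at 4 h (0.594%), 3 at 6 h (0.289%) and 0 at 24 h (0%). At 1 h, where limma called no probe of the array, 5 of 8 members had an unadjusted p below 0.05 in each treatment, as did 26.9% of all probes in irradiated and 14.4% in bystander cells. Over the 48 pairs of member and time, 13 were higher and 6 lower in irradiated cells, and 10 were higher and 1 lower in bystander cells. The rises were all of MMP1, MMP3 and MMP10, and the falls of MMP2, MMP14 and TIMP3.

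Over the mean of the 6 times, 4 of 8 members were higher in irradiated cells (13.3% of all probes were) and 3 were lower (13.9% were). In bystander cells 3 were higher (6.55% of all probes) and 2 were lower (6.93%). MMP1, MMP3 and MMP10 were higher and MMP14 and TIMP3 lower in both treatments, and TIMP1 was higher and MMP2 lower in irradiated cells alone, a difference between the treatments that did not pass for either. Within the microarray slides, where pairs of treated and control arrays of 1 experiment lay on the same slide, all 30 called values at single times had the direction of the call in every such pair, which are part of the same ratios that gave the calls. With the slide in place of the experiment as the block, 2 of the irradiated calls (MMP1 at 2 h, MMP10 at 6 h) and 3 of the bystander calls (MMP10 and TIMP3 at 0.5 h, MMP10 at 4 h) passed the threshold.

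**Figure D4:**
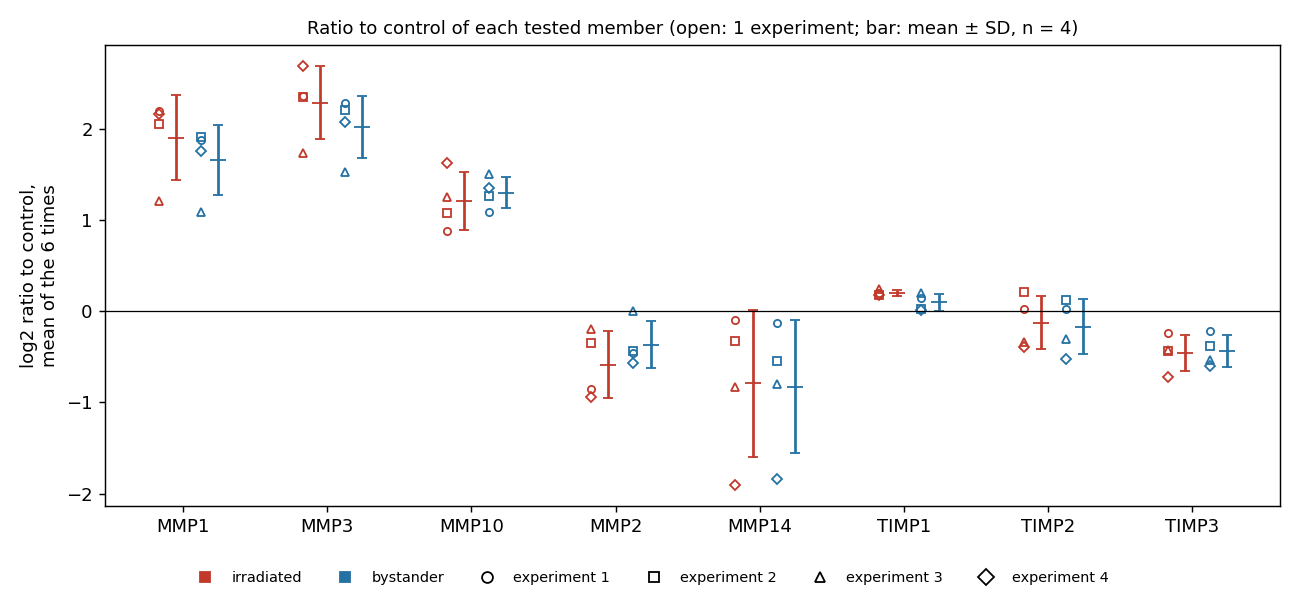
Log2 ratio to control of each of the 8 tested members, averaged over the 6 times (vertical axis), for irradiated and bystander cells. Open symbols are single experiments and bars are the mean ± SD (n = 4). MMP1, MMP3 and MMP10 lie above 0 in all experiments and MMP14 spreads from -0.09 to -1.90 after irradiation.

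Irradiated and bystander cells were compared with each other at each time. None of the 48 pairs of member and time differed by limma (adjusted p below 0.10), where 0.00858% of all such pairs did and where 2 had an unadjusted p below 0.05, MMP1 and MMP3 at 2 h (1.91% of all such pairs did). Those differences, irradiated minus bystander, were 0.51 ± 0.44 and 0.58 ± 0.46 on the log2 scale (adjusted p = 1 each). Over the 6 times 0 of 8 members differed (0.00396% of all probes did). The difference was 0.25 for MMP1 (95% confidence interval -0.09 to 0.59), 0.27 for MMP3 (-0.05 to 0.59), -0.09 for MMP10 (-0.36 to 0.17) and -0.22 for MMP2 (-0.50 to 0.06). For MMP14 it was 0.04 (-0.54 to 0.61) and for TIMP3 -0.02 (-0.21 to 0.17). MMP1 and MMP3 were higher in irradiated than in bystander cells in 4 of 4 experiments, by amounts whose intervals included 0.

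The rise of the inducible genes looked smaller at 1 and 2 h than at 0.5 and 6 h. The change of the ratio between 2 h and 0.5, 4 or 6 h was tested for this, and 0 of 24 member values in either treatment passed the threshold (0% of all probes in both), while 7 in irradiated and 8 in bystander cells had an unadjusted p below 0.05 by limma, as did 10.2% and 7.78% of all probe values. From 2 to 6 h the ratio of MMP3 grew by 2.26 ± 1.55 in irradiated cells and by 2.35 ± 2.47 in bystander cells (adjusted p = 0.377 and 0.929). That of MMP10 grew by 1.03 ± 0.43 and 1.03 ± 0.91 (adjusted p = 0.354 and 0.929). The spread between experiments was as large as the change itself for MMP3 in bystander cells. Without experiment 4, the ratio at 0.5 h was higher than at 2 h for MMP1, MMP3 and MMP10 in both treatments, for example by 1.83 for MMP3 in irradiated cells (adjusted p = 0.0241), whereas leaving out experiment 1, 2 or 3 gave 0 calls. Numbers 3 and 4 at 0.5 h are those that went against the other times, so this difference rests on a link between times that is in doubt.

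The ratios of the inducible genes ran together across experiments, times and treatments. Over 48 ratios the Pearson correlation was 0.92 between MMP1 and MMP3, 0.74 between MMP3 and MMP10 and 0.68 between MMP1 and MMP10. These ratios share control arrays and experiments and are given as a description. MMP14 ran with TIMP2 (r = 0.63) and with TIMP3 (r = 0.53), and MMP1 ran against MMP2 (r = -0.50). Among all tested probes of genes outside the members, the ratio pattern of MMP1 was most like that of SERPINB2 (r = 0.90), the plasminogen activator inhibitor of type 2, followed among others by SLC16A6 (r = 0.85), IL33 (r = 0.84) and IL8 (r = 0.81). For MMP3 it was, again outside the members, SERPINB2 (r = 0.88), followed among others by CXCL5 (r = 0.84) and PTGS2 (r = 0.81).

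Of 18 other MMP and TIMP genes on the array, 9 could be tested over the 6 times, with 0 higher and 3 lower in irradiated cells (median log2 ratio -0.21) and 0 higher and 2 lower in bystander cells (median -0.16), beside a median of -0.01 over all tested probes in each. For these and the following lists, the share of all tested probes called was 13.3% higher and 13.9% lower in irradiated cells and 6.55% higher and 6.93% lower in bystander cells. MMP23B, the MMP11 stromelysin of stromal cells and the membrane-type MMP15 fell in irradiated cells, by 0.92, 0.68 and 0.29 on the log2 scale (limma adjusted p = 0.0483, 0.0412 and 0.0533). MMP9, the second gelatinase, had a ratio of 0.08 (adjusted p = 0.517). Of 20 ADAM and ADAMTS proteases, relatives of the MMPs that shed surface proteins or cut proteoglycans, 2 were higher and 3 lower in irradiated cells (median 0.11) and 1 was higher and 2 lower in bystander cells (median 0.05). ADAM12 rose by 0.87 in irradiated and 0.70 in bystander cells (limma adjusted p = 0.0136 and 0.0432), and the aggrecanase ADAMTS5 by 0.45 in irradiated cells (adjusted p = 0.048). ADAMTS8 had ratios of -0.87 in irradiated and -1.22 in bystander cells (adjusted p = 0.117 and 0.0848). ADAMTS2, the procollagen peptidase, fell by 0.47 and 0.57 (adjusted p = 0.0764 and 0.0806), while its other probes gave -0.19 and -0.36 in irradiated cells.

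Regulators of MMP activity went both ways. Of 19 genes, 5 were higher and 5 lower in irradiated cells (median 0.12), and 5 were higher and 3 lower in bystander cells (median 0.03). PLAUR, the urokinase receptor that gathers plasmin formation on the cell surface, rose by 0.70 in irradiated and 0.62 in bystander cells (limma adjusted p = 0.0486 and 0.0933), whereas its ligand PLAU had ratios of 0.16 and 0.12 (adjusted p = 0.283 and 0.443). TFPI2, a matrix-bound inhibitor of plasmin, rose by 0.69 and 0.56 (adjusted p = 0.0245 and 0.0632). The MMP inducer BSG, the general protease inhibitor A2M and the convertase FURIN, which activates pro-MMP14, were lower in both treatments, by 0.40 to 0.51 on the log2 scale in irradiated cells. A second BSG probe had a ratio of -0.18 (adjusted p = 0.165). RECK, a membrane-bound inhibitor of MMPs, had a ratio of 0.17 in irradiated cells (adjusted p = 0.257).

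Transcription factors of the AP-1, ETS, RUNX and NF-kB families, together with CEBPB, SP1 and STAT3, many of which are known to act on MMP promoters, also went both ways. Of 19 tested, 6 were higher and 6 lower in irradiated cells (median 0.15), and 4 were higher and 5 lower in bystander cells (median 0.09), beside the shares of all probes given above. ATF3, a stress-induced partner of JUN, rose by 1.17 ± 0.41 in irradiated and 0.65 in bystander cells (limma adjusted p = 0.00248 and 0.0423), though its second probe gave 0.16 (adjusted p = 0.416). FOSB rose by 1.32 ± 1.29 in irradiated cells (adjusted p = 0.0567) and FOSL1 by 0.75 and 0.66 (adjusted p = 0.0489 and 0.0932). NFKB1 rose by 0.24 and 0.33 (adjusted p = 0.0391 and 0.0351), while RELA fell by 0.31 and 0.29 (adjusted p = 0.0465 and 0.083). FOS and JUN had ratios of 0.37 and 0.22 in irradiated cells (adjusted p = 0.183 and 0.263). STAT3 fell by 0.64 (adjusted p = 0.0333), with 2 further probes at -0.57 and -0.65.

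The matrix substrates of these proteases were lower or did not pass the test. Of 16 tested, 0 were higher and 7 were lower in irradiated cells (median -0.31, 13.9% of all probes lower), and 0 were higher and 6 lower in bystander cells (median -0.29, 6.93% lower). COL5A1 fell by 0.74 in each treatment (limma adjusted p = 0.0413 and 0.0708), and the matrix glycoproteins NID1 and TNC fell by 0.67 and 0.66 in irradiated cells (adjusted p = 0.029 and 0.0397). COL1A1 and COL3A1, the fibrillar collagens that MMP1 cuts, fell by 0.52 and 0.47 in irradiated cells (adjusted p = 0.0793 and 0.0503). The basement membrane chains COL4A1 and COL4A2 had ratios of 0.05 each (adjusted p = 0.732 and 0.679).

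**Figure D5:**
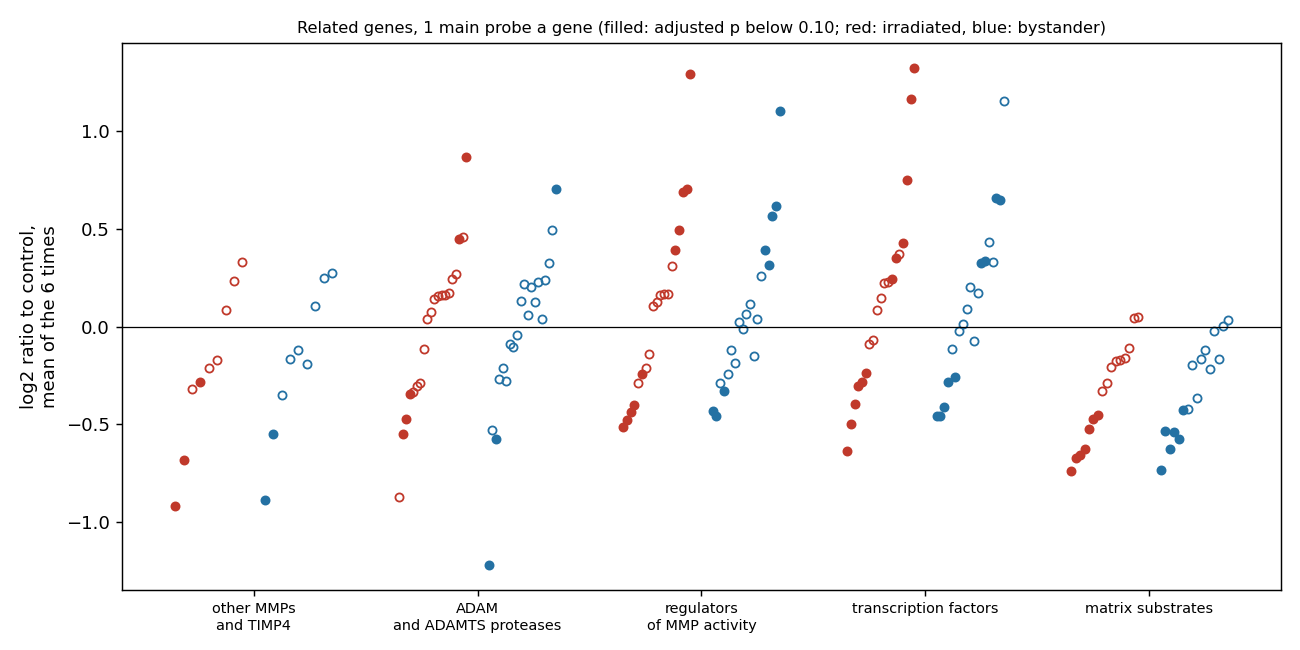
Log2 ratio to control averaged over the 6 times (vertical axis) for the tested genes of the lists of related genes (horizontal axis), with 1 probe for each gene, irradiated in red and bystander in blue. Filled symbols have a limma adjusted p below 0.10. No matrix substrate and no other MMP has a filled symbol above 0, whereas regulators and transcription factors have filled symbols on both sides.

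Markers of the labelled cell type were present. All 10 fibroblast markers were above background on all 72 arrays. Of these, 1 rose in irradiated cells (FAP, 0.46, limma adjusted p = 0.00701) and 5 fell, among them PDGFRB by 0.77 and THY1 by 0.66 (adjusted p = 0.0374 and 0.0731), and in bystander cells 1 rose and 4 fell. The median ratio of the list was -0.46 in irradiated and -0.42 in bystander cells. The summed signal of the 10 markers had a median log2 level of 9.42 over the 24 irradiated arrays (8.59 to 9.70), 9.35 over the bystander arrays (8.62 to 9.68) and 9.64 over the controls (9.27 to 10.2). The part of this fall in the member results was not tested.

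Among markers of other cells, the leukocyte list had CD14, CD68 and ITGAM above background on all 72 arrays, PTPRC on 4, and CD3D and LYZ on 0. Its 2 tested genes, CD14 and CD68, gave 1 call, CD68, which rose by 0.43 in irradiated and 0.37 in bystander cells (limma adjusted p = 0.0138 and 0.0355). Their summed log2 level had a median of -0.63 on irradiated arrays (-1.24 to -0.05), -0.72 on bystander arrays (-1.20 to -0.07) and -0.90 on controls (-1.31 to -0.50). Of 6 epithelial markers 3 were tested and 0 were called. KRT14, KRT19 and SFTPC were above background on all 72 arrays and EPCAM on 44, while CDH1 was on 10 and KRT5 on 1. Of 4 endothelial markers 2 were tested and 0 were called. TEK and VWF were above background on all 72 arrays, CDH5 on 12 and PECAM1 on 2. The part of these other markers in the member results was not tested.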

How the data were processed

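RNA from 72 samples of IMR-90 cells was hybridised to 1-colour Agilent whole human genome arrays. The authors deposited the scanner output of Feature Extraction, of which the processed intensity, already background-subtracted, was used here with the flags for background and uniformity. They also deposited a log2 value table of the same arrays, used as an alternative, and by their methods arrays were left without normalization against each other. Control and non-uniform spots were left out, spots of 1 probe were averaged, and log2 values were set relative to each array's 75th percentile, with a floor of -8. A filter like that of the study was used: a probe was tested where at most 10% of arrays marked all of its spots dim or uneven. This held for 25246 probes, slightly fewer than the study kept.

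Treatment was fitted with the experiment as a block by limma 3.58.1 (lmFit, eBayes with an intensity trend) in R 4.3.3, on the 12 arrays of 1 time, on the means of the 6 times and on differences between times, with p-values adjusted by Benjamini-Hochberg over all tested probes. The experiments were independent cultures by the study's methods, and same-numbered arrays deviated together: their correlation was above 0.1 in 12 of 12 pairs at 0.5, 1, 2 and 24 h, 11 at 4 h and 10 at 6 h. Alternatives covered the scaling, background correction, filter, block, slide, moderation, spot averaging, value table and each experiment left out.

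For lists of related genes, the probe with the highest mean level stood for a gene. Named genes were all members, at most 10 called genes of each list by the size of the change, with key genes that were not called, and the 10 genes of most similar ratio pattern. The members and lists were chosen with earlier results of these data known. A gene that the rule would name is not reported here. The set of RefSeq promoters used here (GRCh38.p14) held 4 of the 9 members.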

Additional observations from a re-analysis of the deposited data

Results flagged for a closer look

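Of 256 groups of 4 values, 30 held a value far from the other 3 by Dixon's test at the 95% level, where chance gives about 1 in 20. None was weighed here.

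Among the ratios, MMP1 in irradiated cells over the 6 times was 1.21 in experiment 3 against 2.06 to 2.20 in the others. Its bystander ratio in experiment 4 was 2.33 at 1 h (others 0.53 to 0.71) and 2.73 at 24 h (others 0.75 to 0.99). The bystander ratio of MMP3 at 0.5 h was 0.23 in experiment 4 against 3.42 to 3.52. MMP10 in irradiated cells was 0.90 in experiment 4 at 0.5 h (others 1.54 to 1.65) and 1.23 in experiment 3 at 6 h (others 2.14 to 2.27).

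MMP14 gave 5 such ratios. At 0.5 h experiment 3 was at -2.26 in irradiated and -2.65 in bystander cells, and experiment 4 was at -2.18 (irradiated, 2 h), -2.20 (bystander, 2 h) and -1.98 (bystander, 4 h), where the others lay between -0.53 and 0.09. The number of the experiment that stood apart was thus 3 at 0.5 h and 4 later.

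For the inhibitors, the irradiated ratio of TIMP1 at 24 h was 0.15 in experiment 4, that of TIMP2 at 2 h -0.49 in experiment 4, that of TIMP3 at 0.5 h -0.84 in experiment 3, and the bystander ratio of TIMP2 at 4 h 0.47 in experiment 2.

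Among the levels, MMP1 was at 4.53 in the irradiated array of experiment 4 at 1 h, and at 3.48 and 3.57 in the bystander and irradiated arrays of experiment 3 at 4 h. MMP3 was at -0.84 in the bystander array of experiment 4 at 0.5 h, and MMP2 at 2.61 in the control of experiment 2 at 2 h. MMP10 was high in experiment 3 at 24 h in every treatment, at 0.50 in control, 2.76 in irradiated and 2.61 in bystander cells, and high in the controls of experiment 4 at 0.5 h (-1.04) and experiment 3 at 2 h (-0.80). TIMP2 stood apart in bystander cells of experiment 4 at 0.5 h (3.34) and experiment 1 at 4 h (3.13), and in controls of experiment 4 at 2 h (4.19) and experiment 2 at 4 h (2.83). TIMP3 was at 4.24 in the bystander array of experiment 3 at 2 h.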

How the results depend on the processing

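The 19 irradiated calls at single times changed most with the block. Of the 11 bystander calls, 0 were left without experiment 2, as with no replicate block, and 2 without experiment 1. With no replicate block, although the experiments are paired, 3 irradiated calls (MMP1 at 2 and 4 h, MMP10 at 6 h) and 0 bystander calls were left, and 2 members (MMP1 and MMP3) were called over the 6 times in each treatment. With the slide as block in place of the experiment, 2 irradiated (MMP1 at 2 h, MMP10 at 6 h) and 3 bystander calls (TIMP3 and MMP10 at 0.5 h, MMP10 at 4 h) passed. The slide block was not run for the means or the changes between times. Testing every probe without a filter gave 11 irradiated and 3 bystander calls, of which 10 and 2 were among those reported and the others were MMP12 at 2 h. Without 1 replicate in turn the counts ran from 8 to 15 in irradiated cells, from 0 to 10 in bystander cells and stayed at 0 between them. Over the 6 times they ran from 4 to 6 and from 3 to 5, and for changes between times from 0 to 3 and from 0 to 4. Without the 0.5 h arrays, chosen after seeing the data, 3 members were called in bystander cells, whereas leaving out the 24 h arrays, also chosen then, changed no call. The irradiated mean of TIMP1 did not pass with normexp background correction (limma adjusted p = 0.122), whereas the bystander mean of MMP2 did (-0.42, 0.0551). The means of MMP14 did not pass with the authors' table (0.135 irradiated, 0.171 bystander) or without a filter (0.138 and 0.169). Without scaling 1 change between times in irradiated cells (MMP3, 6 h against 2 h) and 3 in bystander cells passed (MMP3 at 4 and 6 h and MMP10 at 4 h against 2 h). No called value changed sign under any setting run. Of 112 member values, 13 that passed in neither setting changed sign without scaling and 4 with quantile normalization.

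Without scaling, the median of all probes shifted by -0.38 in irradiated cells at 2 h and 24 h, -0.34 at 6 h and -0.17 over the 6 times, and by 0.42 in bystander cells at 4 h. The split of all called probes then moved from 3369 higher and 3503 lower to 784 and 7529 in irradiated cells over the 6 times, and from 124 and 26 to 3706 and 21 in bystander cells at 4 h. Dim signal limits MMP12 to bounds on the control side, and 4 arrays in a group limit every value.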
